A study of Mus musculus with 6 samples.

Results

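The Dlk1-Dio3 imprinted domain was examined through 5 of its genes, Meg3, Rian, Dlk1, Rtl1 and Dio3, chosen by name from the probe sets that carry a single gene symbol. Each was measured by 1 such probe set, so the domain genes made up 5 of 19938 genes and 5 of 35556 probe sets. The samples came from 3 mouse lines (♂M-1, ♂M-3, ZM-1) that the labels describe as embryonic stem cells obtained by chromosome transfer. Each line had 2 biological repeats, which gave 6 whole-transcript arrays hybridised with biotin-labelled total RNA. The series concerns the reprogramming capacity of the parental pronuclei of the zygote, and its design was a comparison of expression between these lines. All cells shared 1 medium, with PD0325901, which blocks MEK, CHIR99021, which blocks GSK3β, and LIF, on gelatin. The sources used here give neither strain, passage nor donor cell, and the labels do not spell out ♂M or ZM. With 1 ZM line, a difference between line types and a difference between single lines cannot be told apart.

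Imprinted genes are expressed from the copy inherited from 1 parent. In this domain Dlk1, Rtl1 and Dio3 are protein-coding genes expressed mainly from the paternal chromosome, while Meg3 (also called Gtl2), Rian and a large array of microRNAs (miRNAs) and small nucleolar RNAs (snoRNAs) are expressed from the maternal chromosome. A differentially methylated region between Dlk1 and Meg3, methylated on the paternal copy, controls both sides. In mouse pluripotent cells the maternal transcripts are known to become silenced in many reprogrammed lines, and Meg3 is read as a marker of that state.

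Meg3 and Rian stand in the same orientation on the maternally expressed side, and their start regions are shown because their probe sets read above ZM-1 in all 4 ♂M arrays. The windows come from RefSeq (GRCm38.p6, plus strand, 250 bases before to 50 bases after the annotated start). The Meg3 window lies at chr12:109540746-109541045 and the Rian window at chr12:109603695-109603994. Capitals mark matches on either strand to TGACGTCA, the cAMP response element, to TGCCGC, the core bound by the imprint protector ZFP57 when methylated, and to TATAAA, the TATA box.
Meg3: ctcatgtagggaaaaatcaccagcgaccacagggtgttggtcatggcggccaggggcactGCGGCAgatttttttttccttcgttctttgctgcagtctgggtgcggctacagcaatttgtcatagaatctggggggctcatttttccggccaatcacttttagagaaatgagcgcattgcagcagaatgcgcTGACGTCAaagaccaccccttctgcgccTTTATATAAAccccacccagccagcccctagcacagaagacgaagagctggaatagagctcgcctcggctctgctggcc
Rian: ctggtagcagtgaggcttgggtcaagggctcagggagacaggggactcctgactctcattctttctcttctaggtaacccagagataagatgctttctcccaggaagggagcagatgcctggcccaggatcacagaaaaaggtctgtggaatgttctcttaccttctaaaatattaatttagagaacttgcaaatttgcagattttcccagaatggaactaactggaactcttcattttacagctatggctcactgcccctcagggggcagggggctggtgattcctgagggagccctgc
The Meg3 window held the cAMP response element starting 57 bases before the start, TGCCGC in reverse complement starting 190 bases before it, and TATAAA on both strands in 1 overlapping run. These letters occur in 1.79%, 11.6% and 13.6% of the 32851 promoter windows of the table. The Meg3 window contained 13 CG dinucleotides. The Rian window contained 0 CG dinucleotides and none of the 3 motifs. A window at a second annotated Meg3 start held 1 CG and also none of the motifs. A missing match says only that these letters are not in the window.

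The small RNAs of the domain bear on Rtl1, because several miRNAs are transcribed opposite its coding sequence and are known to direct cleavage of its messenger RNA. In the annotation 16 small or antisense genes lay inside the span of Rtl1, of which 8 had a single-symbol probe set. Mature sequences of miRNAs known to pair with Rtl1 are given first, followed by those of miRNA genes that passed the test between lines, all from RefSeq (GRCm38.p6) with the seed, bases 2 to 8, in capitals.
miR-431-5p: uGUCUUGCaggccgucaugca
miR-433-3p: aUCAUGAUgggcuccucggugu
miR-127-3p: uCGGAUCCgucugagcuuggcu
miR-434-3p: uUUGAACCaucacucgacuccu
miR-136-5p: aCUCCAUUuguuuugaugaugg
miR-487b-5p: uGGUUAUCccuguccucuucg
miR-539-5p: gGAGAAAUuauccuuggugugu
miR-667-3p: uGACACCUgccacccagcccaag
miR-300-3p: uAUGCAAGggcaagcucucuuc
Across the 78 mature sequences found for 41 miRNA genes of the domain there were 76 seeds, and 2 were shared, by miR-379-3p with miR-411-3p and by miR-376c-5p with miR-376b-5p. The 9 sequences printed here have 9 different seeds.

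Values are linear intensities as deposited, and log2 differences were taken on log2(intensity + 1) and tested with limma over all 19938 genes with Benjamini-Hochberg adjustment. A gene was called at an adjusted p under 0.05. The arrays had medians between 67.2 and 71.3 and lower quartiles between 23.8 and 25.1. In all, 880 genes (4.41%) were called between ♂M-1 and ZM-1, 3162 (15.9%) between ♂M-3 and ZM-1, and 1303 (6.54%) between ♂M-1 and ♂M-3. Of these calls 42.7%, 54.6% and 49.3% were higher in the line named first, against 62.0%, 70.9% and 47.0% after median centring of the arrays. Both ♂M lines were set against the same 2 ZM-1 arrays, so those comparisons are not independent of each other.

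The embryonic stem cell label was checked first. All 10 markers of embryonic stem cells, among them Pou5f1, Sox2, Nanog and Esrrb, lay above the median of all genes, and their summed intensity was 24976 and 23995 in ♂M-1, 26857 and 27717 in ♂M-3, and 24126 and 23819.8 in the ZM-1 arrays. Fibroblast markers were also present, with 9 of 12 above the median of all genes. Their summed intensity was 8584 and 8880.2 in ♂M-1, 7565 and 7601 in ♂M-3, and 8869 and 8893 in the ZM-1 arrays. Most of each sum came from Vim, which was called between no pair of lines. Vim alone measured 4905 and 5487 in ♂M-1, 5254 and 5381 in ♂M-3, and 5004 and 5133 in ZM-1. The sums therefore understate how far the other fibroblast markers differed. Fewer markers of other cell types were bright, with 3 of 8 for primitive endoderm, 4 of 7 for trophectoderm and 2 of 6 for neural cells above the median of all genes. Per array, over the 3 lines, the sums of these lists lay between 776 and 983, 1110 and 1229, and 531 and 593. No fibroblast marker was at 0, and Lum was the dimmest, between 12.6 and 17.6. Against ZM-1, 10 of the 12 fibroblast markers were called as lower in ♂M-3 and 1 as higher, while in ♂M-1 2 were called as lower and 1 as higher. Of all genes, 7.20% were called as lower and 8.66% as higher in ♂M-3, and 2.53% and 1.89% in ♂M-1. Fibroblasts can express genes of this domain, and the part of these markers in the results below was not tested. In bulk RNA, a change in the share of a cell type and a change in RNA per cell cannot be told apart.

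**Figure D1:**
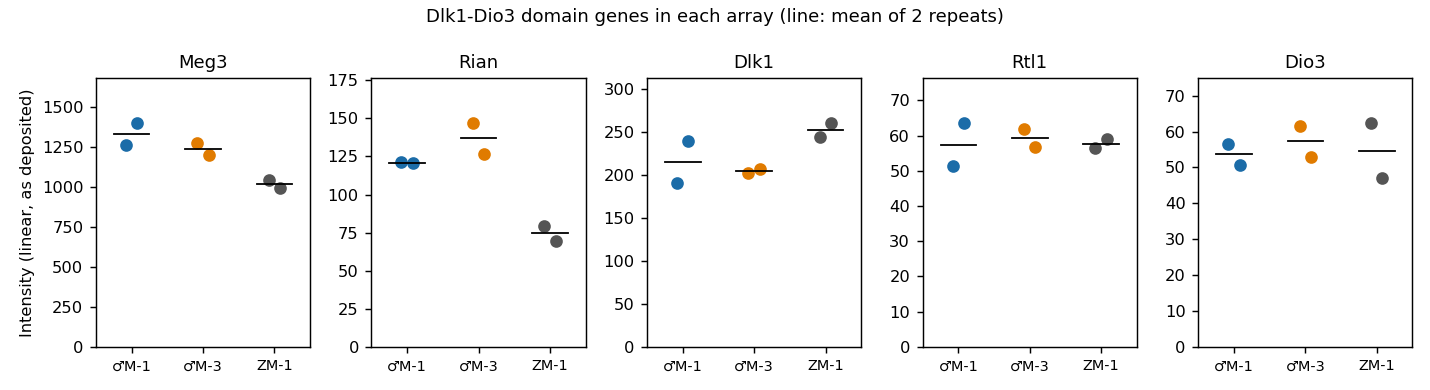
Intensity (linear, as deposited) of the 5 domain genes in each array of ♂M-1, ♂M-3 and ZM-1; points are arrays and horizontal lines are means of 2 repeats. For Meg3 and Rian the 4 ♂M arrays lie above both ZM-1 arrays, for Dlk1 they lie below, and for Rtl1 and Dio3 the lines overlap.

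On the maternally expressed side, Rian was higher in both ♂M lines than in ZM-1, and Meg3 was higher in ♂M-1. Rian, the noncoding RNA that hosts most of the domain's snoRNAs, measured 122 and 120.4 in the ♂M-1 arrays and 147 and 127 in the ♂M-3 arrays, against 79.6 and 69.2 in the ZM-1 arrays. No ♂M array overlapped ZM-1. The means were 121 ± 0.751 (SD, n = 2) for ♂M-1, 137 ± 14.2 for ♂M-3 and 74.4 ± 7.35 for ZM-1. Rian was 1.62-fold higher in the ♂M-1 line than in ZM-1 (log2 difference 0.70, SE 0.10, adjusted p = 0.00553) and 1.83-fold higher in the ♂M-3 line than in ZM-1 (log2 difference 0.87, SE 0.10, adjusted p = 6.74e-04). In order of level ♂M-3 came first, then ♂M-1, then ZM-1, and the ♂M lines did not pass the test against each other (log2 difference of ♂M-1 minus ♂M-3 -0.17, 95% interval -0.40 to 0.05, adjusted p = 0.394). The ♂M-1 call ended on leaving out ♂M-1 replicate 1 (adjusted p = 0.0522) or replicate 2 (0.0620), with log2 differences of 0.69 and 0.70. The ♂M-3 call held whichever array was left out, with adjusted p at most 0.00741. With all probe sets tested, the ♂M-1 difference had adjusted p = 0.0605.

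Meg3, the long noncoding RNA whose start lies next to the imprinting control region, measured 1261 and 1399 in the ♂M-1 arrays and 1277 and 1200.3 in the ♂M-3 arrays. The ZM-1 arrays had 1043 and 994, below every ♂M array. Over the 6 arrays its mean was 1196, at percentile 94.5 of all genes, so Meg3 was bright in all 3 lines. Whether any line was in the silenced state was not tested. The line means were 1330.3 ± 97.3 (SD, n = 2) for ♂M-1, 1239 ± 54.2 for ♂M-3 and 1019 ± 34.6 for ZM-1. Meg3 was 1.30-fold higher in the ♂M-1 line than in ZM-1 (log2 difference 0.38, SE 0.08, adjusted p = 0.0380). In ♂M-3 the log2 difference from ZM-1 was 0.28 (95% interval 0.09 to 0.47), with adjusted p = 0.0518. The ♂M lines differed by 0.10 log2 units (95% interval -0.09 to 0.29, adjusted p = 0.587). The ♂M-1 call was lost without either ♂M-1 array (adjusted p = 0.0739 without replicate 1 and 0.214 without replicate 2), without either ZM-1 array (0.0705 and 0.124) and without either ♂M-3 array (0.0638 for each). It was also lost after quantile normalization (adjusted p = 0.0637) and with all probe sets tested (0.126). With only ♂M-1 and ZM-1 in the fit the adjusted p was 0.0638, which repeats the result without a ♂M-3 array and is not a further loss. The ♂M-3 difference was called after median centring (0.0221), with a pseudocount of 16 (0.0270) and among brighter genes (0.0345 above the 25th percentile of mean intensity and 0.0168 above the 50th).

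A further probe set carries the symbols of both Rian and the snoRNA AF357355, which lies in the Rian region, so its signal cannot be assigned to either. It ran opposite to the Rian probe set. It measured 404 and 444 in ♂M-1 and 467 and 474 in ♂M-3, against 644 and 622 in ZM-1, with both ♂M lines below ZM-1. In the limma fit over all 35556 probe sets the log2 difference was -0.58 in ♂M-1 (adjusted p = 0.0490) and -0.43 in ♂M-3 (adjusted p = 0.0394). Both calls were lost whichever of the 6 arrays was left out, with adjusted p between 0.123 and 0.191 for ♂M-1 and between 0.0648 and 0.178 for ♂M-3, while the log2 differences stayed between -0.65 and -0.51 and between -0.45 and -0.40. After median centring the adjusted p was 0.0634 for ♂M-1 and 0.0558 for ♂M-3.

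**Figure D2:**
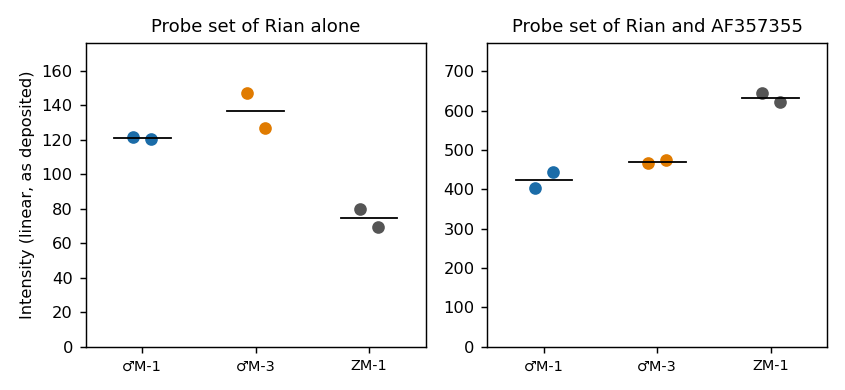
Intensity (linear, as deposited) per array for the probe set of Rian alone (left) and the probe set that carries the symbols of Rian and AF357355 (right); points are arrays and lines are means of 2 repeats. ZM-1 is lowest on the left, at 79.6 and 69.2, and highest on the right, at 644 and 622.

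On the paternally expressed side limma called none of Dlk1, Rtl1 and Dio3 between any pair of lines. At an unadjusted p under 0.05 1 of them was lower, Dlk1 in ♂M-3 against ZM-1. The share of all genes at that unadjusted threshold is not given here, so this count has no background beside it. Dlk1, a membrane protein of the Notch ligand family that holds back differentiation, measured 190.3 and 239 in the ♂M-1 arrays and 202 and 206 in the ♂M-3 arrays, against 243 and 259.9 in the ZM-1 arrays. Every ♂M array thus lay below both ZM-1 arrays, although ♂M-1 replicate 2 came close to ZM-1 replicate 1. The means were 215 ± 34.6 (SD, n = 2) for ♂M-1, 204 ± 2.83 for ♂M-3 and 252 ± 11.7 for ZM-1. The log2 difference from ZM-1 was -0.24 in ♂M-1 (95% interval -0.48 to 0.0071, adjusted p = 0.265) and -0.30 in ♂M-3 (95% interval -0.54 to -0.056, adjusted p = 0.0949). With only ♂M-3 and ZM-1 in the fit, the ♂M-3 difference passed the test (adjusted p = 0.0459). Leaving out ♂M-1 replicate 1 or 2 repeats that result. The difference also passed among genes above the 50th percentile of mean intensity (0.0407). The ♂M lines differed by 0.063 log2 units (95% interval -0.18 to 0.31, adjusted p = 0.826).

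Rtl1, a gene derived from a retrotransposon that is needed for placental vessels in mice, measured 51.2 and 63.5 in the ♂M-1 arrays and 62.0 and 56.7 in the ♂M-3 arrays, against 56.4 and 59.0 in the ZM-1 arrays. The lines overlapped, and the means were 57.4 ± 8.69 (SD, n = 2) for ♂M-1, 59.3 ± 3.76 for ♂M-3 and 57.7 ± 1.88 for ZM-1. The log2 difference from ZM-1 was -0.015 in ♂M-1 (95% interval -0.26 to 0.23, adjusted p = 0.959) and 0.039 in ♂M-3 (95% interval -0.20 to 0.28, adjusted p = 0.850), and that of ♂M-1 minus ♂M-3 was -0.054 (95% interval -0.30 to 0.19, adjusted p = 0.850).

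Dio3, the deiodinase that inactivates thyroid hormone, measured 56.6 and 50.6 in the ♂M-1 arrays and 61.6 and 52.9 in the ♂M-3 arrays, against 62.3 and 47.0 in the ZM-1 arrays. The ZM-1 arrays spanned all 4 ♂M values. Means were 53.6 ± 4.26 (SD, n = 2) for ♂M-1, 57.2 ± 6.15 for ♂M-3 and 54.7 ± 10.9 for ZM-1. The log2 difference from ZM-1 was -0.015 in ♂M-1 (95% interval -0.32 to 0.29, adjusted p = 0.969) and 0.075 in ♂M-3 (95% interval -0.23 to 0.38, adjusted p = 0.762), and that of ♂M-1 minus ♂M-3 was -0.090 (95% interval -0.39 to 0.21, adjusted p = 0.793). Detection calls were not used here, and both Rtl1 and Dio3 lay between the lower quartile and the median of the arrays.

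Counted together, 2 of the 5 domain genes were called as higher in the ♂M-1 line than in ZM-1 and 0 as lower, where 1.89% of all genes were called as higher and 2.53% as lower. In ♂M-3 against ZM-1, 1 of 5 was higher and 0 lower, with 8.66% and 7.20% of all genes called in those directions. Between ♂M-1 and ♂M-3, limma called 0 of 5, with 3.22% of all genes called as higher and 3.32% as lower. At an unadjusted p under 0.05, 0 of 5 passed as well, a count with no share of all genes beside it. Read by arrays alone, each ♂M line lay fully above ZM-1 for Meg3 and Rian and fully below it for Dlk1. Over all genes, ♂M-1 lay above ZM-1 in 23.0% and below in 25.9%, and ♂M-3 above in 30.1% and below in 27.4%. Both ♂M-1 arrays were above both ♂M-3 arrays for 0 of 5 genes and below them for 1, Rian, where 21.6% and 28.9% of all genes were so placed. The 4 ♂M arrays lay above both ZM-1 arrays for 2 of the 5 genes and below them for 1, and over all genes these arrangements occurred in 15.7% and 15.3%.

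The small RNA genes placed between Dlk1 and Dio3 included genes called as higher and genes called as lower. The table held 43 of them with a single-symbol probe set, 40 for miRNAs and 3 for snoRNAs. Whether a whole-transcript probe set at such a gene reads the mature RNA, a precursor or a longer host transcript was not tested. Of the 43, 30 had a mean below the median of all genes and 10 below the lower quartile of the arrays. Against ZM-1, 1 was called as higher and 0 as lower in ♂M-1, and 3 as higher and 2 as lower in ♂M-3, where 1.89% and 2.53% of all genes were called in ♂M-1 and 8.66% and 7.20% in ♂M-3. At an unadjusted p under 0.05, 7 were higher and 7 lower in ♂M-1, and 6 higher and 7 lower in ♂M-3. Their median log2 difference was 0.016 in ♂M-1 and -0.055 in ♂M-3, against -0.0082 and 0.0021 over all genes. Between ♂M-1 and ♂M-3 limma called 0 of 43, with 4 higher and 1 lower at an unadjusted p under 0.05. In that pair 3.22% of all genes were called as higher and 3.32% as lower. The share of all genes at an unadjusted p under 0.05 is not given here, so the unadjusted counts have no background beside them. All 4 ♂M arrays lay above both ZM-1 arrays in 7 of the 43 genes and below them in 7, where 15.7% and 15.3% of all genes were so placed. Over the 297 miRNA genes of the whole table those shares were 8.08% and 19.9%. That set is not a like one, since it holds no snoRNA genes and includes the 40 miRNA genes counted here.

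Mir487b, in the miRNA cluster on the Dio3 side, was the small RNA gene called against ZM-1 in both ♂M lines. It measured 63.6 and 68.8 in ♂M-1 and 62.7 and 62.4 in ♂M-3, against 50.5 and 41.9 in ZM-1. The ♂M arrays were all above ZM-1, by a log2 difference of 0.51 in ♂M-1 (adjusted p = 0.0226) and 0.44 in ♂M-3 (adjusted p = 0.0182). The ♂M-1 call ended on leaving out ♂M-1 replicate 1 (adjusted p = 0.0808), ♂M-1 replicate 2 (0.162) or replicate 2 of ZM-1 (0.0781). The ♂M-3 call ended on leaving out ♂M-3 replicate 1 (0.0889), ♂M-3 replicate 2 (0.0900) or ZM-1 replicate 2 (0.0817).

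Mir539, the next miRNA gene after Mir487b among those measured, had 34.6 and 33.0 in ♂M-1 and 37.0 and 32.4 in ♂M-3, against 27.0 and 24.0 in ZM-1. It was called in ♂M-3 (log2 difference 0.43, adjusted p = 0.0159) and not in ♂M-1 (0.39, adjusted p = 0.0503). The snoRNA gene DQ267101 measured 36.7 and 34.2 in ♂M-1 and 36.4 and 40.2 in ♂M-3, against 28.5 and 30.3 in ZM-1, and was called in ♂M-3 (log2 difference 0.37, adjusted p = 0.0190). The other measured snoRNA genes, DQ267102 and AF357341, were called between no pair of lines. DQ267102 measured 491 and 560 in ♂M-1 and 680 and 618 in ♂M-3, against 645.6 and 645.5 in ZM-1. Its log2 difference from ZM-1 was -0.30 in ♂M-1 (adjusted p = 0.105) and 0.0067 in ♂M-3. For AF357341 every ♂M array lay below both ZM-1 arrays. Its log2 difference was -0.22 in ♂M-1 (adjusted p = 0.221) and -0.26 in ♂M-3 (adjusted p = 0.0881). Of the genes called as lower, Mir667 measured 323 and 295 in ♂M-1 and 273 and 243 in ♂M-3, against 355 and 365 in ZM-1. It was lower in ♂M-3 (log2 difference -0.48, adjusted p = 0.00721). Mir300 measured 55.7 and 51.8 in ♂M-1 and 39.5 and 42.7 in ♂M-3, against 61.4 and 51.4 in ZM-1, and was also lower in ♂M-3 (log2 difference -0.44, adjusted p = 0.0175). The ♂M-3 arrays were thus the lowest for both genes, and the ♂M-1 arrays overlapped ZM-1 for Mir300. Leaving out ♂M-3 replicate 1 ended the calls of Mir539 (adjusted p = 0.115) and Mir300 (0.110). Leaving out ♂M-3 replicate 2 ended those of DQ267101 (0.139), Mir667 (0.0662) and Mir300 (0.0574). Without ZM-1 replicate 1 the calls of DQ267101 (0.0728) and Mir300 (0.0721) were lost, and without ZM-1 replicate 2 that of Mir539 (0.0763).

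Of the 8 measured genes inside the span of Rtl1, limma called 0 between any pair of lines. At an unadjusted p under 0.05, 2 were higher and 1 lower in ♂M-1 against ZM-1, 1 was higher and 0 lower in ♂M-3, and 1 was higher and 0 lower in ♂M-1 against ♂M-3. These unadjusted counts likewise have no share of all genes beside them. Of all genes, 4.41%, 15.9% and 6.54% were called in these 3 pairs at an adjusted p under 0.05. Mir127 measured 76.1 and 74.3 in ♂M-1 and 79.9 and 67.2 in ♂M-3, against 59.8 and 62.3 in ZM-1, with every ♂M array above ZM-1. Its log2 difference was 0.30 in ♂M-1 (adjusted p = 0.120) and 0.26 in ♂M-3 (adjusted p = 0.0939). Mir431 measured 84.0 and 92.9 in ♂M-1, 78.3 and 59.3 in ♂M-3, and 69.5 and 75.9 in the ZM-1 arrays, so ♂M-1 was above ZM-1 while ♂M-3 spanned it. Mir434 and Mir136 lay between 8.64 and 14.5 in all arrays, below the lower quartile, and no fold is given. The probe set that carries the symbols of Mir433 and 6430411K18Rik, an antisense transcript of Rtl1, measured 68.8 and 92.1 in ♂M-1, 83.1 and 86.4 in ♂M-3, and 68.2 and 75.4 in the ZM-1 arrays. In the fit over all probe sets its adjusted p was 0.668 in ♂M-1 and 0.386 in ♂M-3 against ZM-1.

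**Figure D3:**
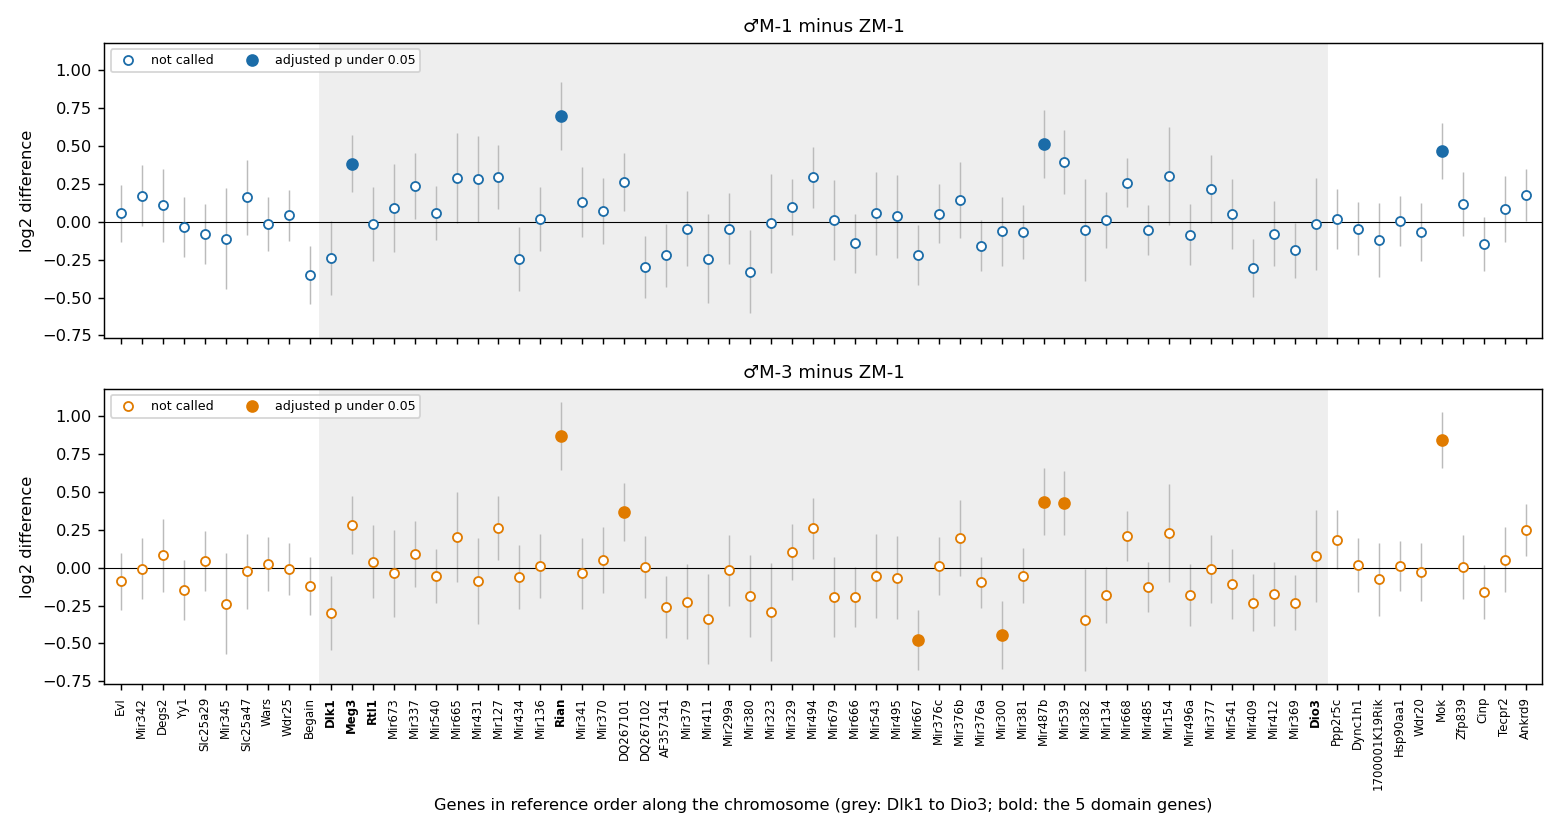
log2 difference from ZM-1 with its 95% interval for ♂M-1 (top) and ♂M-3 (bottom), in reference order, for 10 measured genes before Dlk1, the 48 measured genes from Dlk1 to Dio3 (grey) and 10 after Dio3; filled points passed adjusted p under 0.05. Rian is the highest point inside the grey region in both panels, at 0.70 and 0.87, and Mok is the only filled point outside it.

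The genes that flank the domain were compared to see whether the differences ran past its borders. Of the 20 nearest measured genes, 10 on each side, 1 was called as higher and 0 as lower in each ♂M line against ZM-1, and the gene was Mok in both. Among all genes 1.89% were called as higher and 2.53% as lower in ♂M-1, and 8.66% and 7.20% in ♂M-3. Mok, a kinase related to MAP kinases, is the sixth measured gene after Dio3. It measured 170.4 and 171 in ♂M-1 and 213 and 231 in ♂M-3, against 128 and 119 in ZM-1, so the 3 lines did not overlap. Its log2 difference from ZM-1 was 0.47 in ♂M-1 (adjusted p = 0.0155) and 0.84 in ♂M-3 (adjusted p = 2.68e-04), and that of ♂M-1 minus ♂M-3 was -0.38 (adjusted p = 0.0284). The ♂M-1 call against ZM-1 ended on leaving out ♂M-1 replicate 1 (adjusted p = 0.0844), ♂M-1 replicate 2 (0.111) or replicate 2 of ZM-1 (0.0637). The call between the ♂M lines was lost on leaving out any 1 of their 4 arrays (adjusted p between 0.0814 and 0.202).

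Begain, which encodes a synaptic scaffold-associated protein and is the nearest measured gene before Dlk1, had 48.9 and 53.2 in ♂M-1 and 61.0 and 58.9 in ♂M-3, against 62.2 and 68.4 in ZM-1. Its adjusted p against ZM-1 was 0.0524 in ♂M-1 and 0.384 in ♂M-3. Ppp2r5c, a regulatory subunit of protein phosphatase PP2A and the nearest measured gene after Dio3, had 965 and 851 in ♂M-1 and 1020.4 and 1018 in ♂M-3, against 862 and 931 in ZM-1. Its adjusted p was 0.945 and 0.193. The median log2 difference of the 20 flanking genes was 0.012 in ♂M-1 and -0.0011 in ♂M-3.

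Genes that set, protect or erase imprints were examined next, because methylation of the control region governs which domain genes each parental copy expresses. Of 23 measured genes, 0 were called as higher and 1 as lower in the ♂M-1 line than in ZM-1, and 2 as higher and 4 as lower in ♂M-3. The shares of all genes called in those directions were 1.89% and 2.53% in ♂M-1, and 8.66% and 7.20% in ♂M-3. The list's median log2 difference was 0.032 in ♂M-1 and -0.052 in ♂M-3, against -0.0082 and 0.0021 over all genes. Dnmt3a, a de novo DNA methyltransferase, was lower in both lines, at 282 and 295 in ♂M-1 and 255 and 269 in ♂M-3, against 406 and 407 in ZM-1. The log2 difference was -0.49 in ♂M-1 (adjusted p = 0.00773) and -0.63 in ♂M-3 (adjusted p = 8.49e-04). The ♂M-1 call ended on leaving out ♂M-1 replicate 1 (adjusted p = 0.0631) or replicate 2 (0.0544), and the ♂M-3 call held whichever array was left out.

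In ♂M-3 the other de novo methylation genes were lower as well. Dnmt3b, the second such enzyme, measured 401 and 428 in ♂M-3 against 583 and 569 in ZM-1 (log2 difference -0.47, adjusted p = 0.0144), and 611 and 747 in ♂M-1. Dnmt3l, their cofactor, measured 1516 and 1653 in ♂M-3 against 1938 and 1894 in ZM-1 (log2 difference -0.28, adjusted p = 0.0448). Zfp57, the zinc finger protein that keeps methylated imprints, measured 2880.0 and 2682 in ♂M-3 against 3448 and 3493 in ZM-1 (log2 difference -0.32, adjusted p = 0.0237). For all 3 genes both ♂M-3 arrays were below both ZM-1 arrays, an arrangement found in 27.4% of all genes. The 3 were named because they were called as lower, so this adds no support. The Dnmt3b call ended on leaving out ♂M-3 replicate 1 (adjusted p = 0.0914) or 2 (0.0538), and the Dnmt3l call on leaving out any 1 of the 6 arrays (between 0.0657 and 0.246). The Zfp57 call was lost on leaving out any 1 of the 4 arrays of these lines (between 0.0587 and 0.161).

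Higher in ♂M-3 was Dppa3 (Stella), which is known to protect the maternal side of this domain from methylation in pluripotent cells. Dppa3 measured 119.5 and 115 in ♂M-3 against 75.7 and 57.4 in ZM-1 (log2 difference 0.82, adjusted p = 0.00438), and 87.6 and 107 in ♂M-1 (log2 difference 0.55, adjusted p = 0.0588). Every ♂M array lay above ZM-1. Zfp42 (REX1), a zinc finger protein of naive cells that also stands in the list of stem cell markers, measured 673 and 668 in ♂M-3 against 263 and 280.0 in ZM-1 (log2 difference 1.30, adjusted p = 2.40e-05), and 283 and 299 in ♂M-1. Between ♂M-1 and ♂M-3, 4 genes of the list were higher and 1 lower in ♂M-1, where 3.22% and 3.32% of all genes were called in those directions. Dnmt3b was higher by 0.70 log2 units (adjusted p = 0.00457), Dnmt3l by 0.41 (0.0167), Aff3, a binder of the control region, by 0.48 (0.0374), and the chromatin remodeller Atrx by 0.38 (0.0280), while Zfp42 was lower (log2 difference -1.20, adjusted p = 8.64e-05). The calls of Dnmt3l and Atrx were lost on leaving out any 1 of the 4 arrays compared (adjusted p between 0.0550 and 0.137, and between 0.0589 and 0.209). That of Aff3 ended on leaving out ♂M-1 replicate 2 or either ♂M-3 array (between 0.144 and 0.208). Zfp445 and Trim28, which keep methylated imprints with Zfp57, the histone methyltransferase Setdb1, the maintenance methyltransferase Dnmt1 and 11 further genes of the 23 were called between no pair of lines.

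**Figure D4:**
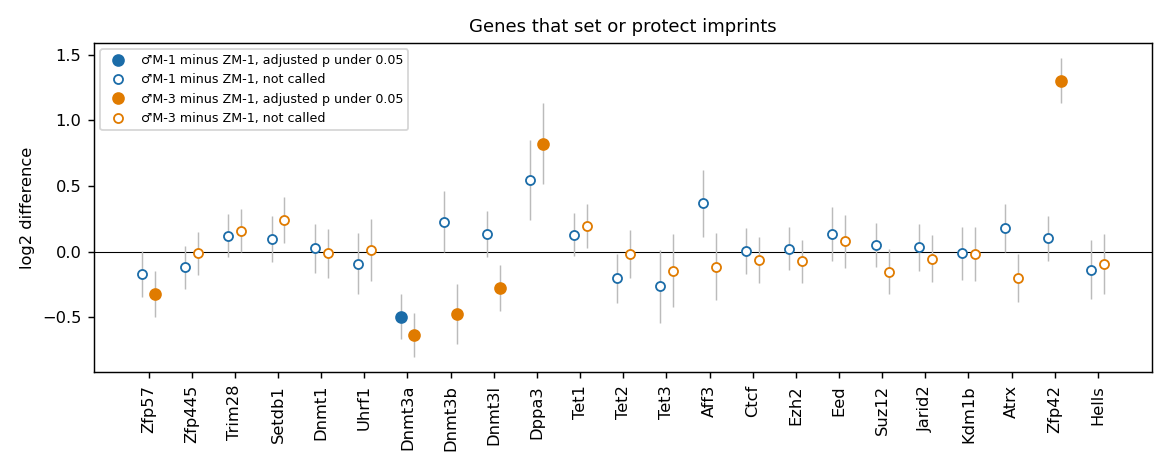
log2 difference from ZM-1 with its 95% interval for 23 genes that set, protect or erase imprints, for ♂M-1 (blue, left in each pair) and ♂M-3 (orange); filled points passed adjusted p under 0.05. Dnmt3a is filled and below 0 in both lines, at -0.49 and -0.63, and Dppa3 and Zfp42 are the filled points above 0, both in ♂M-3.

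The pathways in which the coding genes of the domain act were compared last. Dlk1 belongs to the Notch ligand family, and of 19 Notch pathway genes 1 was higher and 0 lower in the ♂M-1 line than in ZM-1, and 1 higher and 1 lower in ♂M-3. Their median log2 difference was 0.096 in ♂M-1 and 0.039 in ♂M-3, against -0.0082 and 0.0021 over all genes. The shares of all genes called as higher and as lower were 1.89% and 2.53% in ♂M-1, and 8.66% and 7.20% in ♂M-3. Jag1, a canonical Notch ligand, measured 404 and 458 in ♂M-1 against 326 and 301 in ZM-1 (log2 difference 0.46, adjusted p = 0.0254), a call that ended on leaving out ♂M-1 replicate 1 (0.0516), ♂M-1 replicate 2 (0.171) or replicate 2 of ZM-1 (0.0995). Dtx1, a ubiquitin ligase that modulates Notch, measured 376 and 490.1 in ♂M-3 against 305 and 324 in ZM-1 (adjusted p = 0.0351). Jag2, another canonical ligand, measured 163 and 169.8 in ♂M-3 against 205 and 199 in ZM-1 (adjusted p = 0.0338). The Dtx1 call was lost on leaving out any 1 array other than ♂M-3 replicate 1 (adjusted p between 0.0597 and 0.203), and the Jag2 call on leaving out any 1 array (between 0.0532 and 0.178). Between ♂M-1 and ♂M-3, Jag2 (log2 difference 0.37, adjusted p = 0.0195) and the receptor Notch3 (0.34, adjusted p = 0.0367) were higher in ♂M-1. Both of these calls were lost on leaving out any 1 of the 4 arrays compared (between 0.0818 and 0.142, and between 0.106 and 0.229). The receptors Notch1, Notch2 and Notch4 and the ligand Dll1 were called between no pair of lines.

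Dio3 acts on thyroid hormone, and limma called 0 of 10 measured genes of that pathway in each of the 3 pairs of lines. Of all genes, 4.41% were called in ♂M-1 against ZM-1, 15.9% in ♂M-3 against ZM-1 and 6.54% between the ♂M lines. At an unadjusted p under 0.05, 0 were higher and 2 lower in the ♂M-1 line than in ZM-1, 0 and 2 in ♂M-3, and 1 and 0 in ♂M-1 against ♂M-3. The share of all genes at that unadjusted threshold is not given here. Dio1 and Dio2, which activate the hormone, and the receptors Thra and Thrb were among these 10. The list's median log2 difference from ZM-1 was -0.050 in ♂M-1 and -0.075 in ♂M-3. Rtl1 is 1 of several genes derived from retrotransposon Gag, and of 11 others 1 was called, Peg10, an imprinted and paternally expressed gene outside the domain. Those shares of all genes, 4.41%, 15.9% and 6.54%, are the background for this list too. Peg10 measured 1752 and 1932 in ♂M-1, 1133 and 1214 in ♂M-3, and 1358 and 1275 in the ZM-1 arrays. It was higher in the ♂M-1 line than in ZM-1 (log2 difference 0.48, adjusted p = 0.0160) and than in ♂M-3 (0.65, adjusted p = 0.00283). The call against ZM-1 ended on leaving out ♂M-1 replicate 2 (adjusted p = 0.127) or replicate 2 of ZM-1 (0.0635). The list's median log2 difference from ZM-1 was -0.011 in ♂M-1 and -0.094 in ♂M-3. Rtl3, Rtl4, Rtl5 and Rtl6 were called between no pair of lines.

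The genes whose pattern over the 6 arrays was nearest to Meg3 and Rian were found among 2612 other genes called between at least 1 pair of lines and brighter than the median of all genes. Likeness was the root mean square distance between log2 values centred on each gene's mean, where 0 is an identical pattern. Nearest to Meg3 were Klf16, a Krüppel-like transcription factor, at 0.029, Ankrd52, a subunit of a PP6 phosphatase complex, at 0.029, and the zinc finger gene Zfp868 at 0.032. Nearest to Rian were the sorting receptor Sorl1 at 0.075, the transcription factor Tfap2c at 0.081, and Sfmbt2, a paternally expressed imprinted gene, at 0.082. The distance between Meg3 and Rian themselves was 0.25. It cannot be weighed against those of the neighbours, which were picked as the smallest, and it also grows with the size of a difference. From Meg3, Dlk1 lay at 0.29, Rtl1 at 0.17 and Dio3 at 0.21, and from Rian they lay at 0.53, 0.39 and 0.36. Repeats share their line, and whether any arrays shared a hybridisation batch is not known here. These distances are given as a description.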

How the data were processed

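Total RNA from 6 cultures of 3 lines was labelled with a whole-transcript terminal labelling kit, per the labels' protocols. The deposited table holds 1 linear intensity per probe set and array. GCOS 1.4 is listed, with no role, in the submitters' processing notes. How the authors summarised and normalized the intensity values is not given in the sources used here. Arrays have no counting depth, so their number limits the precision.

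Of 35556 probe sets, 21789 carried 1 gene symbol, 1621 several and 12146 none in the platform annotation used. The brightest single-symbol probe set by mean was kept for each of 19938 genes, and Entrez IDs of 21698 probe sets matched RefSeq (GRCm38.p6), which changed 0 symbols and gave gene order. With limma 3.58.1 in R 4.3.3, 1 mean per line was fitted to log2(intensity + 1) over all 6 arrays (3 residual and 6.01 prior degrees of freedom), two-sided, with Benjamini-Hochberg adjustment over all genes. The procedure was tested on simulated data. P-values measure the spread between repeats, which may be technical. Replicate numbers were not used to pair the samples in the main fit.

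The genes and lists were chosen with earlier results of these data known. Named genes were the 5 domain genes, called genes of the domain, its 10 neighbours per side and the other lists with up to 4 uncalled ones, and the 3 nearest patterns to each called domain gene. Alternatives covered pseudocount, normalization, filters, probe sets, samples in the fit, replicate block and leaving out each array.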

Additional observations from a re-analysis of the deposited data

How the results depend on the processing

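The probe set of Rian alone kept its direction against ZM-1 under every alternative run. This carries little weight, because its ♂M and ZM-1 arrays did not overlap and several alternatives left its log2 difference unchanged. Its call in ♂M-1 was lost when all 35556 probe sets were tested (log2 difference 0.70, adjusted p = 0.0605). The probe set of Rian and AF357355 ran the other way, with log2 differences of -0.58 in ♂M-1 and -0.43 in ♂M-3. The Meg3 call in ♂M-1 was lost after quantile normalization (0.33, adjusted p = 0.0637), with only the arrays of the 2 lines compared (0.38, 0.0638), with all probe sets tested (0.38, 0.126) and with the replicate block (0.38, 0.0633). Meg3 in ♂M-3 was called with a pseudocount of 16 (0.28, adjusted p = 0.0270), after median centring (0.34, 0.0221) and among genes above the 25th (0.28, 0.0345) or 50th percentile (0.28, 0.0168). Dlk1 in ♂M-3 was called above the 50th percentile (-0.30, adjusted p = 0.0407) and with only the 2 lines compared (-0.30, 0.0459). Rtl1 and Dio3 in ♂M-1, both near 0, changed sign after quantile normalization (0.034 and 0.031) and median centring (0.034 and 0.034). The causes of these changes were not tested.

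Leaving out 1 array at a time gave log2 differences from ZM-1 in ♂M-1 of 0.31 to 0.46 for Meg3, 0.60 to 0.80 for Rian, -0.40 to -0.073 for Dlk1, -0.17 to 0.14 for Rtl1 and -0.22 to 0.19 for Dio3. In ♂M-3 they were 0.24 to 0.33, 0.76 to 0.97, -0.35 to -0.25, -0.024 to 0.10 and -0.13 to 0.28 for the same genes. For ♂M-1 minus ♂M-3 they were 0.027 to 0.18, -0.28 to -0.068, -0.10 to 0.23, -0.21 to 0.098 and -0.20 to 0.018. A line left with 1 array was assumed to vary like the others. Of 28 called differences of neighbouring and list genes, 21 lost the call on leaving out at least 1 array. That 0 changed sign carries no weight, because their arrays did not overlap between the 2 lines compared. Testing all probe sets ended 21 of these 28 calls, median centring 2, fitting only the 2 lines 3, quantile normalization 1 and the replicate block 3.

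Over all genes, testing every probe set gave 275 calls for ♂M-1 minus ZM-1, 2027 for ♂M-3 minus ZM-1 and 442 for ♂M-1 minus ♂M-3, and leaving out 1 array gave 234 to 631, 1302 to 2750 and 357 to 1495. The replicate block gave 686, 2769 and 1071, and with it the probe set of Rian and AF357355 had adjusted p = 0.101 in ♂M-1 and 0.0743 in ♂M-3. Repeat differences of the lines correlated over genes at 0.067, -0.10 and -0.035 for these 3 pairs. Such values cannot settle whether samples with the same number shared a batch. Crossing the numbers of ♂M-3, a choice made after seeing the data, gave 3230 calls against ZM-1.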
